A study of Drosophila melanogaster with 16 samples.

Results

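Males without the start of *Uhg4* were compared with males of the wild-type line they were made in, in 8 of the 16 libraries of the study. The 6 deletion libraries are 2 each of *208-ΔA*, *208-ΔF* and *208-ΔG*, and the control is the pair of DGRP_208 male libraries. All were chosen by the line and sex that their labels give. Each library was made from 30 whole male flies pooled, 3 to 5 days old, and ribosomal RNA was depleted before sequencing. DGRP_208 is an inbred wild-type line without *Wolbachia*. The 3 deletions were obtained independently with CRISPR-Cas9 in that line, remove exon 1 of *Uhg4* with the promoter region before it, on both chromosomes, and come from stocks kept over the *CyO* balancer of chromosome 2. Homozygous flies of both sexes are sterile by the study's account. The methods call the 2 libraries of a group biological replicates, without saying whether they come from separate cultures. The p-values measure the spread between libraries of a group, which may be technical. Unless stated otherwise this spread was estimated over all 16 libraries, those of females included. Of 17490 genes in the count table, 16212 had a median count of at least 2 over the 16 libraries and were tested.

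*Uhg4* is a host gene of small nucleolar RNAs (snoRNAs): its spliced transcript is noncoding, and the snoRNAs are cut from its introns. H/ACA snoRNAs guide the change of uridine to pseudouridine, and C/D snoRNAs guide methylation of ribose, mostly in ribosomal RNA. Several of the genes described below belong to the stress and immune response of the fly. Turandot genes encode small secreted proteins that the fat body, the insect counterpart of liver and adipose tissue, releases after infection, heat or injury, and JAK/STAT signalling is among the pathways that switch them on.

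The counts of a male library summed to 22401064 to 51954693. Levels are given as CPM, counts relative to library size after scaling with TMM factors, and fold changes, on the log2 scale, are those of edgeR's quasi-likelihood test with its standard error. A gene was called at a Benjamini-Hochberg adjusted p under 0.05 over all genes tested. Libraries of a line also differed from one another. The median level of chemoreceptor genes, which are silent in most cells, was 0.465 and 0.754 RPKM (reads scaled to gene length and library size) in *208-ΔA*, 1.86 and 0.725 in *208-ΔF*, 4.19 and 4.22 in *208-ΔG*, and 0.596 and 3.45 in DGRP_208. The *208-ΔG* libraries and DGRP_208 male replicate 2 were high, and the others were lower. *208-ΔA* male replicate 2 also held RNA of yolk and germ line genes above that of all other males (values below).

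Over the 3 lines together, 6 genes rose (0.037% of the genes tested) and 4 fell (0.0247%) in deletion males, together 0.0617%. The 6 that rose were the Turandot genes *TotM*, *TotA* and *TotC*, *Diedel*, the cathepsin gene *CtsL3* and the Baramicin gene *BaraB*. The 4 that fell were *snoRNA:Or-aca5*, which lies within *Uhg4*, the metallopeptidase gene *Nepl5*, *CG44521* and the antisense RNA gene *asRNA:CR44205*. At an unadjusted p under 0.05 there were 477 genes (2.94%), 298 with a higher (1.84%) and 179 with a lower (1.1%) level in deletion males. All 6 deletion males lay above both DGRP_208 males for 447 genes (2.76%) and below both for 250 (1.54%), so 697 genes (4.3%) had no overlap. The median fold change of all genes was -0.05 and the median standard error 0.36, from 0.71 for genes under 1 CPM to 0.27 for those of 100 CPM and over. The number of calls rested on the DGRP_208 libraries: it was 2 without DGRP_208 male replicate 1 and 3 without replicate 2, and between 5 and 7 without any 1 deletion library (6 without *208-ΔA* male replicate 2, 5 without *208-ΔG* male replicate 1).

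**Figure D1:**
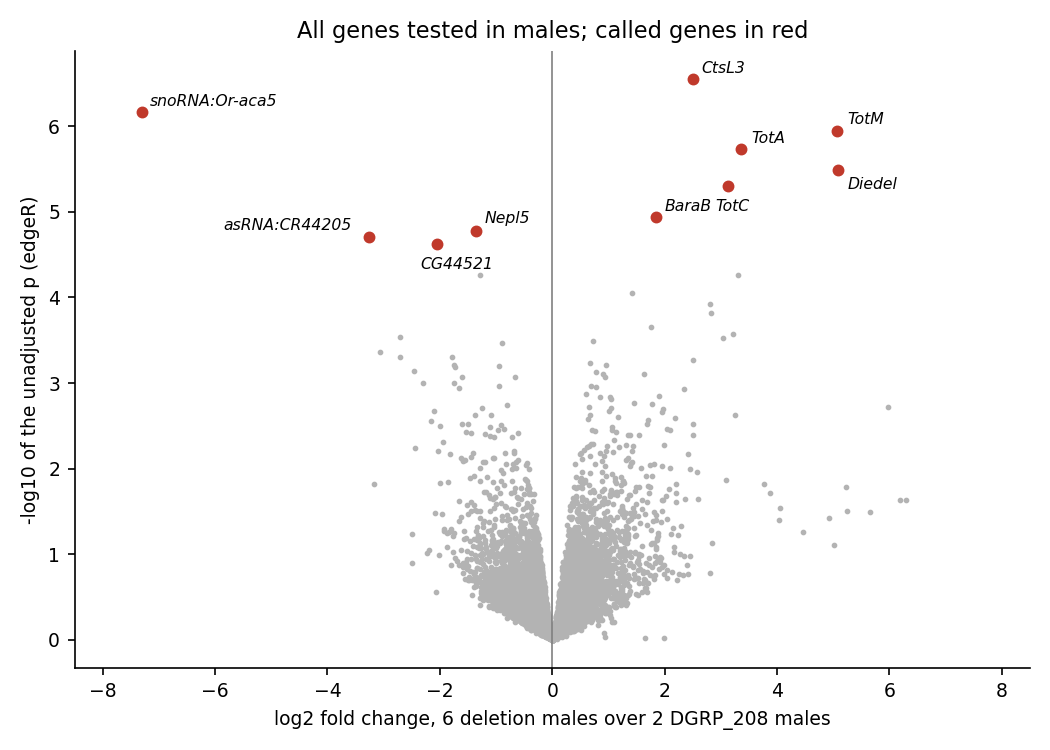
Each point is 1 of the 16212 genes tested. The horizontal axis is the log2 fold change of the 6 deletion males over the 2 DGRP_208 males, the vertical axis -log10 of the unadjusted p from edgeR, and the 10 called genes are in red. The called genes lie from -7.31 (*snoRNA:Or-aca5*) to 5.08 (*Diedel*) on the horizontal axis.

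The deletion itself was first checked by the reads on *Uhg4*. In males *Uhg4* stood at 0.992 and 0.773 CPM in *208-ΔA*, 0.387 and 1.02 in *208-ΔF*, 0.298 and 0.213 in *208-ΔG*, and 1.89 and 0.974 in DGRP_208. The lowest DGRP_208 library was below the highest library of *208-ΔA* and of *208-ΔF*, so the groups overlapped, whereas both *208-ΔG* libraries lay under both controls. The fold change was -1.40 (standard error 0.42, adjusted p = 0.90) and did not pass the test of edgeR (unadjusted p = 0.00658). The control levels rest on 66 and 33 reads and those of deletion males on 9 to 40, whereas the control females of the same table had 276 and 121 reads and the deletion females 4 to 23.

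Of the snoRNAs of the locus 1 was called, *snoRNA:Or-aca5*. It is an H/ACA snoRNA with no known target by its name (Or, orphan), and was at 0.174 and 0.422 CPM in *208-ΔA*, 0.0430 and 0.430 in *208-ΔF*, 0.115 and 0.0472 in *208-ΔG*, and 36 and 21.1 in DGRP_208. All 6 deletion libraries were near 0 and both controls far above them. The fold change of -7.31 (standard error 0.72, adjusted p = 0.00557) from edgeR passed the test with the 8 male libraries alone, without each male library in turn and with every other setting tried. It rests on 1259 and 716 reads in DGRP_208 males and 1 to 18 in deletion males. *snoRNA:Psi28S-2949*, the first snoRNA of the locus by position, was read 11 and 3 times in the controls and 0 to 5 times per deletion male library, and its fold change of -1.80 (standard error 0.82, adjusted p = 0.999) from edgeR did not pass the test. The other 5 snoRNAs of *Uhg4* did not reach a median count of 2.

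Neither neighbour of *Uhg4* passed the test in males. *Boot*, whose protein Bootlegger serves the export of piRNA precursors from the nucleus, was at 4.08 to 8.69 CPM in the 6 deletion libraries against 3.64 and 6.05 CPM in DGRP_208, with overlap, and a fold change of 0.17 (standard error 0.34, adjusted p = 0.999). *Ctu1*, which encodes a tRNA thiolation enzyme and overlaps the end of *Uhg4* on the other strand, was at 7.61 to 18.7 CPM in the 6 deletion libraries against 9.51 and 18.1 CPM in DGRP_208, also with overlap, and a fold change of -0.13 (standard error 0.30, adjusted p = 0.999). The sign of both turned when 1 DGRP_208 library was left out (-0.26 for *Boot* without replicate 1, 0.39 for *Ctu1* without replicate 2). The strand used in counting is not given in the sources used here, so reads of *Ctu1* and of the end of *Uhg4* cannot be told apart.

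The largest rises among the called genes were those of Turandot genes and of *Diedel*. *TotM* (chromosome 2L from 5329857 to 5330464 in dm6) was at 587 and 902 CPM in *208-ΔA*, 234 and 389 in *208-ΔF*, 173 and 215 in *208-ΔG*, and 11.4 and 9.83 in DGRP_208. Every deletion library was far above both controls, with *208-ΔA* highest and *208-ΔG* lowest. The fold change was 5.06 (standard error 0.52, adjusted p = 0.00606) from edgeR, that is 33.4-fold.

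*TotA* (chromosome 3R from 20871036 to 20871700) was among the genes of highest level that were called, at 2394 and 3562 CPM in *208-ΔA*, 1253 and 1944 in *208-ΔF*, 844 and 937 in *208-ΔG*, and 173 and 143 in DGRP_208. Its fold change was 3.36 (standard error 0.36, adjusted p = 0.00746) from edgeR. The neighbouring *TotC* (chromosome 3R from 20872988 to 20873580) was at 2194 and 2918 CPM in *208-ΔA*, 1053 and 1620.4 in *208-ΔF*, 787 and 811 in *208-ΔG*, and 189 and 130.4 in DGRP_208, with a fold change of 3.13 (standard error 0.38, adjusted p = 0.0135). For *TotA* and *TotC* the lines kept the order seen for *TotM*, without overlap between any deletion library and a control. *TotX* and *TotB*, the latter chosen after its values were seen, did not pass the test over all genes, although their groups did not overlap: *TotX* was at 113 to 440.0 CPM in the 6 deletion libraries against 36.7 and 24.3 CPM in DGRP_208, a fold change of 2.83 (standard error 0.50, adjusted p = 0.164). *TotB* was at 3.05 to 6.79 CPM in the 6 deletion libraries against 0.716 and 0.443 CPM in DGRP_208, a fold change of 3.03 (standard error 0.58, adjusted p = 0.257).

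The other 3 Turandot genes, chosen after their values were seen to complete the family, overlapped with the controls. *TotE*, *TotF* and *TotZ* had fold changes of -0.32, -0.81 and 0.51 (adjusted p = 0.999 for each from edgeR, with the sign of *TotF* and of *TotZ* turned without 1 DGRP_208 library), at 0.215 to 6.86 CPM in deletion males. The family thus had 3 of 8 members called by edgeR (DESeq2 5, limma-voom 3, limma on GeTMM values 4), 5 of 8 above both controls in every deletion library, and a median fold change of 2.93, beside -0.05 for all genes. Without DGRP_208 male replicate 1 the adjusted p from edgeR was 0.188 for *TotM*, 0.201 for *TotA* and 0.222 for *TotC*, and without replicate 2 it was 0.178, 0.178 and 0.211, so that these calls needed both controls, and that of *TotC* also both *208-ΔG* libraries (0.0669 and 0.0516 without replicate 1 or 2). With the male libraries alone *TotM* kept its call (adjusted p = 0.0435 from edgeR), and *TotA* and *TotC* did not (0.107 for each). By line the median was 3.54 in *208-ΔA*, 2.92 in *208-ΔF* and 2.18 in *208-ΔG*.

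*Diedel* (chromosome 3R from 29493852 to 29494267) encodes a secreted protein known to restrain the Imd immune pathway. It was at 107 and 194 CPM in *208-ΔA*, 43.8 and 67.1 in *208-ΔF*, 35.5 and 43.5 in *208-ΔG*, and 1.60 and 2.48 in DGRP_208. It was nearly absent from the controls and present in every deletion library, and its fold change was 5.08 (standard error 0.58, adjusted p = 0.0105) from edgeR, or 33.8-fold. Its call was lost when either control was left out (adjusted p from edgeR 0.229 without DGRP_208 male replicate 1, 0.178 without replicate 2) and with limma-voom (adjusted p = 0.0607). Genes of the JAK/STAT pathway itself, looked at after the values of Turandot genes were seen, did not pass the test. *Socs36E*, a target that feeds back on the pathway, was at 66.8 to 74.8 CPM in the 6 deletion libraries against 57.4 and 71.3 CPM in DGRP_208, a fold change of 0.16 whose sign turned without DGRP_208 male replicate 1 (-0.10). The cytokine genes *upd2* and *upd3* had fold changes of -0.71 and 0.14 (adjusted p = 0.999 for both from edgeR), with signs that turned when 1 library was left out. RNA of whole flies does not tell more of the cells that make a transcript from more transcript per cell, here and in the results that follow.

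*CtsL3* (chromosome 3R from 6025826 to 6027238), which encodes a cathepsin L-like cysteine protease, had the smallest p of all genes. Its level was 98.7 and 116 CPM in *208-ΔA*, 87.0 and 84.2 in *208-ΔF*, 58.7 and 53.1 in *208-ΔG*, and 10.9 and 17.2 in DGRP_208. No deletion library came near a control, and *208-ΔA* was again the highest line. Its fold change, 2.51 (standard error 0.22, adjusted p = 0.00452) from edgeR, or 5.69-fold, passed the test in each of the 8 refits without 1 male library, but not with the 8 male libraries alone (adjusted p = 0.107). Of the 8 other cathepsin genes of the list, 0 had an unadjusted p under 0.05, and edgeR, DESeq2, limma-voom and limma on GeTMM values called none of them.

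*BaraB* (chromosome 2R from 8933423 to 8934445) belongs to the Baramicin family, whose member *BaraA* encodes antifungal peptides released by the Toll pathway. *BaraB* was at 56.4 and 48.0 CPM in *208-ΔA*, 31.6 and 36.5 in *208-ΔF*, 20.8 and 23.6 in *208-ΔG*, and 11.1 and 7.76 in DGRP_208. Its lowest deletion library still lay above both controls, and its fold change was 1.85 (standard error 0.24, adjusted p = 0.0264) from edgeR. This call ended in all 8 refits without 1 male library (adjusted p up to 0.235), with the male libraries alone (0.107), with DESeq2 size factors (0.0524) and with the replicate block (0.0631).

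**Figure D2:**
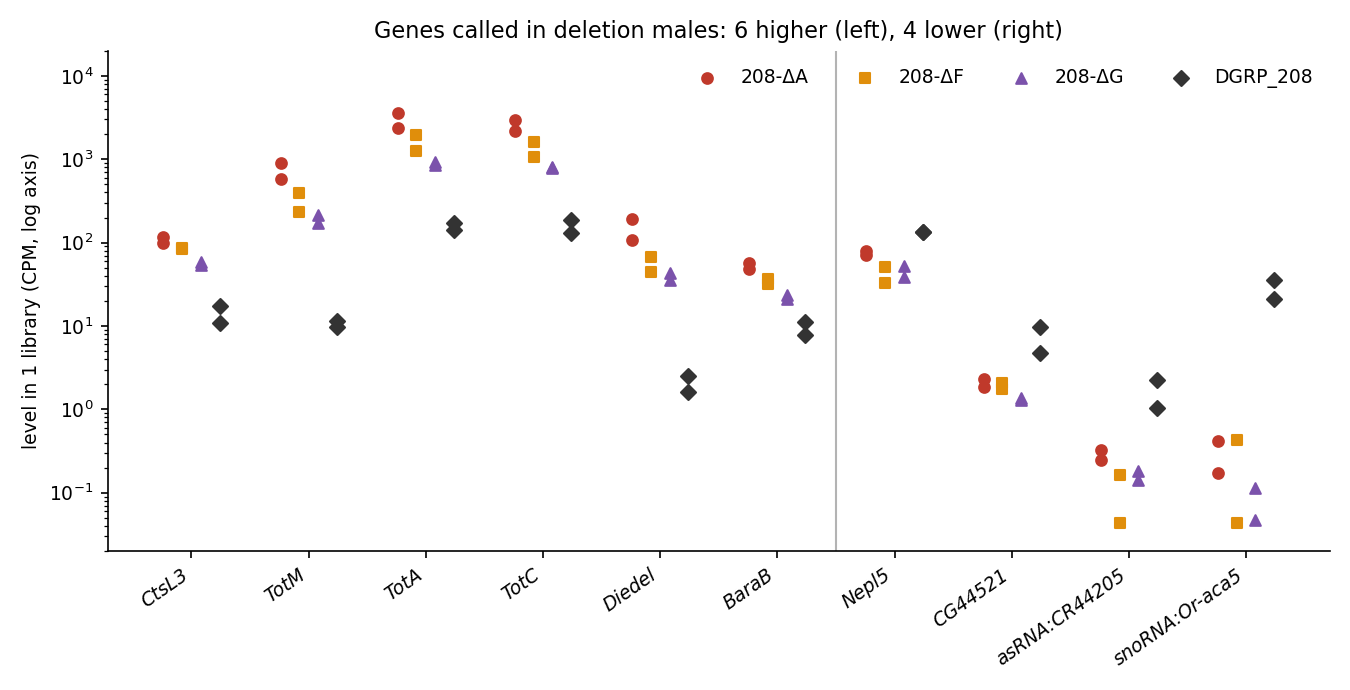
Level of each of the 10 called genes in each of the 8 male libraries, in CPM on a log axis. Circles are *208-ΔA*, squares *208-ΔF*, triangles *208-ΔG* and diamonds DGRP_208, with 1 marker per library. For the 6 genes on the left all deletion libraries lie above the controls, in the order *208-ΔA*, *208-ΔF*, *208-ΔG*, and for the 4 on the right all lie below.

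Among the genes that fell, *Nepl5* (chromosome 2L from 6381266 to 6383419) had the highest level. It encodes a neprilysin-like protein, of a family of zinc metallopeptidases that cut small peptides. It was at 71.9 and 80.2 CPM in *208-ΔA*, 51.1 and 32.9 in *208-ΔF*, 39.0 and 51.9 in *208-ΔG*, and 132 and 136 in DGRP_208. The controls lay close together and above every deletion library. The fold change was -1.35 (standard error 0.19, adjusted p = 0.0341) from edgeR, with *208-ΔA* (-0.82) nearer to the control than *208-ΔF* (-1.67) and *208-ΔG* (-1.56). Without 1 male library the call held only when *208-ΔF* male replicate 1 was the one left out (adjusted p up to 0.235 otherwise), and it ended with scaling by library size only (adjusted p = 0.173 from edgeR), with the male libraries alone (0.293) and with the replicate block (0.0631). Of the 25 other neprilysin genes tested, *Nepl21* had an unadjusted p of 0.00875, with a higher level in deletion males (fold change 0.76) and overlap with the controls, and none of the 4 tools called one.

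*CG44521* (chromosome 3L from 5713331 to 5714029), a protein-coding gene of no known function here, was at 2.33 and 1.85 CPM in *208-ΔA*, 1.76 and 2.10 in *208-ΔF*, 1.38 and 1.30 in *208-ΔG*, and 9.82 and 4.78 in DGRP_208. Its deletion libraries spanned less than the 2 controls did, and all were below them. The fold change was -2.06 (standard error 0.29, adjusted p = 0.0388) from edgeR. *asRNA:CR44205* (chromosome 2R from 9766348 to 9767514) was at 0.248 and 0.328 CPM in *208-ΔA*, 0.0430 and 0.161 in *208-ΔF*, 0.183 and 0.142 in *208-ΔG*, and 2.23 and 1.03 in DGRP_208. These are few reads, 1 to 14 per deletion library against 78 and 35 in the controls, and the gene is annotated as antisense, so that reads of the gene on the other strand cannot be told apart from its own. The fold change was -3.27 (standard error 0.45, adjusted p = 0.0351) from edgeR. Without 1 male library the call of *CG44521* held only without DGRP_208 male replicate 2, and that of *asRNA:CR44205* in 0 of 8 refits (adjusted p up to 0.472 for both). Both calls also ended with limma-voom (adjusted p = 0.0607 for both), with the male libraries alone (0.356 and 0.293) and with the replicate block (0.0868 for both).

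By position, 3 of the 10 called genes lie on chromosome arm 2R, and all 3 lie within 1 Mb of *Uhg4*: *snoRNA:Or-aca5* in the gene itself, *BaraB* 161 kb and *asRNA:CR44205* 669 kb away. This window holds 331 of the 3207 genes tested on 2R. In it 4.23% of genes lay above both controls in all deletion males and 2.42% below, beside 2.68% and 1.53% on the rest of the arm, and the median size of the fold change was 0.21 in the window and 0.21 outside it. The deletion and the stretch of chromosome carried with it cannot be told apart in these lines. Of the other called genes, *CtsL3*, *TotA*, *TotC* and *Diedel* lie on 3R, *TotM* and *Nepl5* on 2L, and *CG44521* on 3L.

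Behind the called genes came others whose groups did not overlap but whose adjusted p was above 0.05. The highest of these by p was *CG43133* on the X chromosome, of no known function here, at 3.22 and 9.04 CPM in *208-ΔA*, 2.80 and 4.03 in *208-ΔF*, 1.93 and 1.23 in *208-ΔG*, and 0.286 and 0.354 in DGRP_208. It was called in *208-ΔA* alone, with a fold change of 4.24 (standard error 0.58, adjusted p = 0.0360) from edgeR, where replicate 2 stood apart from all other males, and over the 3 lines its fold change was 3.31 (standard error 0.52, adjusted p = 0.0734). *CG13901* was at 31.3 to 76 CPM in the 6 deletion libraries against 24.6 and 14.9 CPM in DGRP_208 (fold change 1.42) and *asRNA:CR46047* at 0.780 to 2.47 CPM in the 6 deletion libraries against 0.229 and 0.207 CPM in DGRP_208 (fold change 2.81). Chosen after their values were seen, *Elo68beta*, of the fatty acid elongase family, was at 2.38 to 5.33 CPM in the 6 deletion libraries against 0.429 and 0.295 CPM in DGRP_208 (fold change 3.22), *CG30148* at 2.34 to 5.48 CPM in the 6 deletion libraries against 1.15 and 0.886 CPM in DGRP_208 (1.76) and *RanGAP*, which drives GTP hydrolysis by Ran in nuclear transport, at 59.3 to 88.4 CPM in the 6 deletion libraries against 42.4 and 46.9 CPM in DGRP_208 (0.73).

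On the lower side, *lncRNA:Hsromega*, the noncoding RNA that builds omega speckles in the nucleus and is strongly induced by heat, was at 2052 and 1807 CPM in *208-ΔA*, 1368 and 1802 in *208-ΔF*, 656 and 699 in *208-ΔG*, and 6174 and 2378 in DGRP_208. All deletion libraries were below the controls, *208-ΔG* most so, but the controls themselves differed widely, and the fold change was -1.75 (standard error 0.37, adjusted p = 0.349) from edgeR. *CG30089* was at 63.6 to 114 CPM in the 6 deletion libraries against 175 and 143 CPM in DGRP_208 (fold change -0.95), *CG30325* at 2.09 to 3.27 CPM in the 6 deletion libraries against 11.5 and 5.64 CPM in DGRP_208 (-1.78) and *CG34307* at 0.187 to 0.661 CPM in the 6 deletion libraries against 4.29 and 1.51 CPM in DGRP_208 (-2.71). The long noncoding RNA genes *lncRNA:CR44943*, *lncRNA:CR44196* and *lncRNA:CR43752* had fold changes of -1.73, -2.46 and -1.60 without overlap. Of 1816 lncRNA genes tested, 58 (3.19%, all genes 1.54%) lay below both controls and 69 (3.80%, all genes 2.76%) above, with 46 higher (2.53%, all genes 1.84%) and 46 lower (2.53%, all genes 1.1%) at an unadjusted p under 0.05 and 0 called by edgeR. *Ugt37A2*, a UDP-glycosyltransferase gene, was at 25.7 to 34.1 CPM in the 6 deletion libraries against 54.5 and 41.3 CPM in DGRP_208 (-0.66), and *Gld*, glucose dehydrogenase, chosen after its values were seen, at 29.6 to 61.3 CPM in the 6 deletion libraries against 106 and 65.6 CPM in DGRP_208 (-0.94).

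The antimicrobial peptide genes, and the Bomanin and Baramicin genes, had mostly positive fold changes, of which edgeR called only that of *BaraB*. Of 21 antimicrobial peptide genes, 6 had a higher level at an unadjusted p under 0.05 (all genes 1.84%) and 0 a lower one, 5 lay above both controls in all deletion males (all genes 2.76%), and the median fold change was 0.59 (0.28 without *208-ΔF* male replicate 1, 0.96 without DGRP_208 male replicate 2). EdgeR called 0 of them, limma-voom and limma on GeTMM values 0, and DESeq2 1. The Diptericin gene *DptB*, a target of the Imd pathway, was at 4.22 and 5.74 CPM in *208-ΔA*, 19.0 and 4.73 in *208-ΔF*, 1.35 and 2.03 in *208-ΔG*, and 1.09 and 1.27 in DGRP_208. Every deletion library was above the controls, but *208-ΔF* male replicate 1 stood far above the rest, and the fold change of 1.98 (standard error 0.49, adjusted p = 0.567) from edgeR did not pass the test. The same library was highest for *DptA* (43.9 CPM, others 4.79 to 12.5 among deletion males) and for the Attacin gene *AttC* (66.7 CPM, others 9.61 to 23.8).

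Neither of 2 antifungal peptide genes was called. *Mtk*, metchnikowin, was at 14.7 and 16 CPM in *208-ΔA*, 28.5 and 20.1 in *208-ΔF*, 7.34 and 15.8 in *208-ΔG*, and 7.13 and 7.20 in DGRP_208, a fold change of 1.18 (standard error 0.34, adjusted p = 0.854) from edgeR. *Drs*, drosomycin, the usual readout of the Toll pathway, chosen after its values were seen, was at 16.7 and 52.7 CPM in *208-ΔA*, 40.1 and 27.6 in *208-ΔF*, 14 and 13.5 in *208-ΔG*, and 12.8 and 6.14 in DGRP_208, a fold change of 1.41 (standard error 0.44, adjusted p = 0.973). All deletion libraries of both genes lay above the controls, with a small margin for both *208-ΔG* libraries of *Drs* and for *208-ΔG* male replicate 1 of *Mtk*. Among 17 Bomanin and Baramicin genes, 1 was called (*BaraB*), and the median fold change was 0.47, with 0.75 in *208-ΔA*, 0.78 in *208-ΔF* and -0.16 in *208-ΔG*. Of these genes, 5 (29.4%, all genes 1.84%) were higher at an unadjusted p under 0.05. All deletion males lay above both controls for 3 (17.65%, all genes 2.76%). *BomBc3* was at 26.1 to 72.2 CPM in the 6 deletion libraries against 23.2 and 24.2 CPM in DGRP_208 (1.04).

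Markers of hemocytes, the blood cells of the fly, were given beside these genes. Of 12 markers, 3 (25.0%, all genes 1.84%) were higher at an unadjusted p under 0.05, 3 (25.0%, all genes 2.76%) lay above both controls and 11 had a positive fold change, with a median of 0.36. Their summed level was 1477 to 3109 CPM in deletion males and 2059 and 1364 CPM in the controls. The scavenger receptor gene *Sr-CI* was at 28.5 to 47.1 CPM in the 6 deletion libraries against 19.9 and 25.3 CPM in DGRP_208 (0.65), the phagocytosis receptor gene *NimC1* at 14.6 to 23.5 CPM in the 6 deletion libraries against 10.6 and 13.9 CPM in DGRP_208 (0.49), *He*, which was chosen after its values were seen, at 0.504 to 0.820 CPM in the 6 deletion libraries against 0.344 and 0.354 CPM in DGRP_208 (0.92), and *Hml*, which encodes a clotting protein, overlapped (0.54). Whether the number of hemocytes has a part in the immune values was not tested. Of 13 peptidoglycan recognition protein genes, *PGRP-SC2*, an enzyme that degrades bacterial cell wall, was lower at an unadjusted p of 0.00307 (fold change -0.92), at 13.1 to 31.8 CPM in the 6 deletion libraries against 56.3 and 34 CPM in DGRP_208.

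Besides the snoRNA of the locus, small nuclear RNA (snRNA) genes, most of them of the spliceosome, were examined as a group after their values were seen. All 28 snRNA genes tested had a positive fold change, also with scaling by library size alone, and 25 (without DGRP_208 male replicate 2) to 28 of them without 1 male library, with a median of 0.81 (1.5 in *208-ΔA*, 0.89 in *208-ΔF*, 0.61 in *208-ΔG*). Of these genes, 11 (39.3%) were higher at an unadjusted p under 0.05 (all genes 1.84%) and 12 (42.9%) lay above both controls in all deletion males (all genes 2.76%). EdgeR called 0 of them (smallest adjusted p = 0.495), limma-voom and limma on GeTMM values 0, and DESeq2 4. Without 1 male library the number at an unadjusted p under 0.05 was 7 (without DGRP_208 male replicate 2) to 12, beside 528 of all genes in the fit without DGRP_208 male replicate 2, and 9 without *208-ΔA* male replicate 2.

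The U5 genes, whose RNA holds the exons together in the spliceosome, had 4 of 7 members at an unadjusted p under 0.05, with a median fold change of 1.70. *snRNA:U5:38ABb* was at 9.65 and 10.4 CPM in *208-ΔA*, 6.67 and 9.68 in *208-ΔF*, 3.97 and 4.96 in *208-ΔG*, and 2.52 and 1.30 in DGRP_208, a fold change of 1.90 (standard error 0.45, adjusted p = 0.495) from edgeR. *snRNA:U1:95Cc* was at 7.11 to 23.5 CPM in the 6 deletion libraries against 5.15 and 2.10 CPM in DGRP_208 (1.78) and *snRNA:U4:38AB* at 0.614 to 2.37 CPM in the 6 deletion libraries against 0.344 and 0.325 CPM in DGRP_208 (1.95). The highest snRNA, 7SK, which holds back transcription elongation, overlapped between the groups (fold change 0.20). Copies of U1, U2, U4, U5 and U6 genes are nearly identical, and the authors counted reads aligned to a single place, so the share of each copy is uncertain. In females the same 28 genes had a median fold change of -0.61, with 0 higher and 9 lower at an unadjusted p under 0.05, and edgeR called no snRNA gene for the difference between the sexes.

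Small nucleolar RNAs outside *Uhg4* gave no call by edgeR. Of 106 H/ACA snoRNAs tested, 4 (3.77%, all genes 1.84%) were higher and 2 (1.89%, all genes 1.1%), *snoRNA:Or-aca5* among them, lower at an unadjusted p under 0.05. All deletion males lay above both controls for 1 (0.943%, all genes 2.76%) and below both for 1 (0.943%, all genes 1.54%). The median fold change was 0.34 (1.16, 0.27 and -0.36 in *208-ΔA*, *208-ΔF* and *208-ΔG*). This median was 1.00 without DGRP_208 male replicate 1 and -0.07 without replicate 2. Of 42 C/D snoRNAs tested, of 100 in the table, 1 (2.38%, all genes 1.84%) was higher at an unadjusted p under 0.05. It was *snoRNA:Me18S-A1576*, at 0.496 to 1.07 CPM in the 6 deletion libraries against 0.0859 and 0.177 CPM in DGRP_208, a fold change of 2.50 (standard error 0.52, adjusted p = 0.349) from edgeR. Among the 6 other snoRNA host genes *Uhg8* was at 2.01 to 5.48 CPM in the 6 deletion libraries against 1.83 and 1.48 CPM in DGRP_208 (1.08, unadjusted p = 0.0402), and none of the 4 tools called one. DESeq2 called 1 C/D snoRNA, and the 3 other tools 0.

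**Figure D3:**
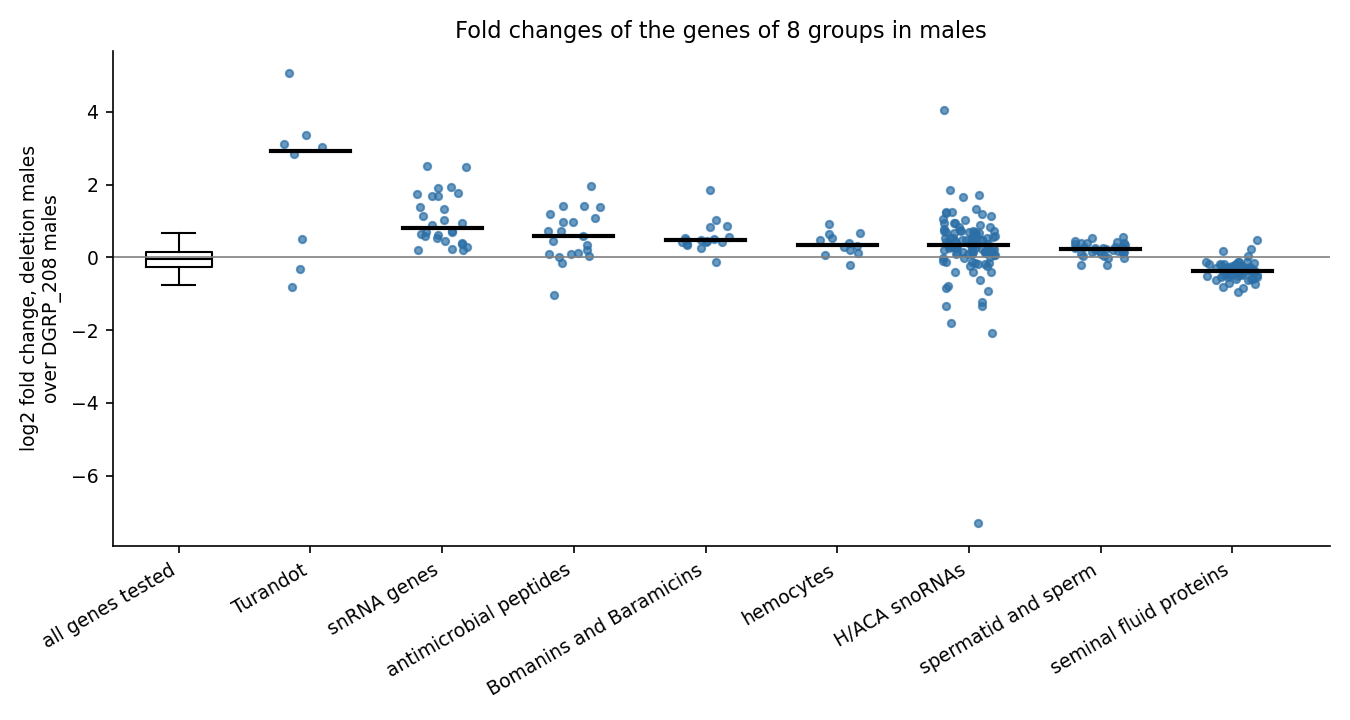
Log2 fold changes of deletion males over DGRP_208 males for the genes of 8 groups, 1 point per gene and a bar at the median. The box at the left shows the median and quartiles of all genes tested, with whiskers to the 5th and 95th percentiles (-0.77 and 0.66). Medians run from -0.37 for seminal fluid genes to 2.93 for Turandot genes, and the low point among H/ACA snoRNAs is *snoRNA:Or-aca5*.

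By line, and against the same 2 control libraries, edgeR called most genes in *208-ΔA* and none in *208-ΔG*. In *208-ΔA* males 7 genes rose (0.0432%), the 6 named above and *CG43133*, and none fell, with 1583 (9.76%) at an unadjusted p under 0.05, 785 higher (4.84%) and 798 lower (4.92%). In *208-ΔF* males 5 rose (0.0308%), *CtsL3*, *TotM*, *TotA*, *Diedel* and *TotC*, and none fell, with 513 (3.16%) at an unadjusted p under 0.05, 425 higher (2.62%) and 88 lower (0.543%). In *208-ΔG* males edgeR called 0 genes (0.0%), with a smallest adjusted p of 0.0599, that of *CtsL3* and *TotM*, and 1984 (12.2%) at an unadjusted p under 0.05, 283 higher (1.75%) and 1701 lower (10.5%). Without DGRP_208 male replicate 1 or 2, edgeR called 1 gene in *208-ΔA* in each case, and 0 and 1 genes in *208-ΔF*. DESeq2 called 102 genes in *208-ΔG*, limma-voom 2 and limma on GeTMM values 4.

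The *208-ΔG* count depended on 1 control library. Without DGRP_208 male replicate 2, edgeR called 1731 genes in *208-ΔG*, 298 higher and 1433 lower, whereas without replicate 1 it called 0. DGRP_208 male replicate 2 and both *208-ΔG* libraries are those with high chemoreceptor levels, and their TMM factors were 1.30, 1.39 and 1.40 against 0.796 in the other control. With the chemoreceptor level as a covariate edgeR still called 0 genes in *208-ΔG*, and over the 3 lines it called 24, among them all 10 of the calls above.

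For each of the 6 genes that rose over the 3 lines, both *208-ΔA* libraries lay above both *208-ΔF* libraries, and these above both *208-ΔG* libraries. Over genes of all levels this order occurred in 13.4% and its reverse in 10.7%. Of the 447 genes with all deletion males above both controls, 38 had this order and 4 its reverse. Median fold changes at 100 CPM and over also fell from *208-ΔA* (0.288) over *208-ΔF* (0.163) to *208-ΔG* (-0.63). This class holds 3 of the 6 genes, and that of 10 to 100 CPM (0.0729, 0.0336 and -0.0996) the others. Genes of 1 to 10 CPM went the other way (-0.308, -0.144 and 0.373). Whether the 6 genes exceed this trend with level was not tested. For *CtsL3* the fold changes over the shared controls were 2.93, 2.60 and 1.99, for *TotM* 6.1, 4.87 and 4.19, and for *BaraB* 2.47, 1.85 and 1.24 in *208-ΔA*, *208-ΔF* and *208-ΔG*. The test among the lines did not pass for them (unadjusted p = 0.00700, 0.00430 and 0.00267, adjusted p = 0.144 for each from edgeR).

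**Figure D4:**
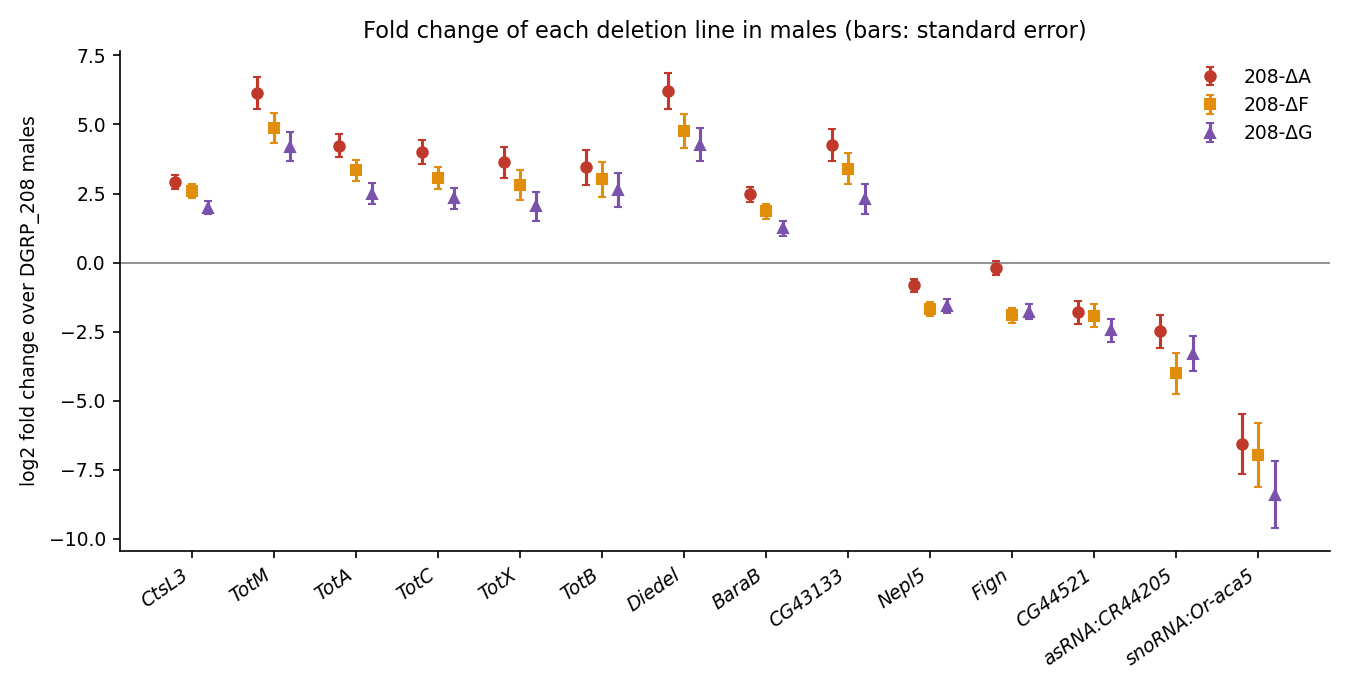
Log2 fold change of each deletion line over the same 2 DGRP_208 male libraries, with bars of 1 standard error, for the 10 called genes and for *TotX*, *TotB*, *CG43133* and *Fign*. *208-ΔA* (circles) is above *208-ΔF* (squares) and *208-ΔG* (triangles) for each gene with positive fold changes, and for *Fign* it stays near 0 (-0.20) where the other lines are at -1.90 and -1.78.

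Compared with each other, the 3 lines gave calls that depended on the tool. Among the 3 deletion male groups the count called by edgeR was 0, the unadjusted p was under 0.05 for 5248 genes (32.4%), the adjusted p was at least 0.144, and DESeq2 called 2694, limma-voom 0 and limma on GeTMM values 0. For *208-ΔG* against *208-ΔA*, 7787 genes (48.0%) had an unadjusted p under 0.05, the smallest adjusted p was 0.0624, and DESeq2 and limma-voom called 6707 and 6452 genes where edgeR and limma on GeTMM values called 0. For *208-ΔF* against *208-ΔA* the counts were 348 (2.15%) at an unadjusted p under 0.05 with 0 called by edgeR and 3 by DESeq2, and for *208-ΔG* against *208-ΔF* 3854 (23.8%) with 0 and 1, while limma-voom and limma on GeTMM values called 0 in both. Without DGRP_208 male replicate 2, which takes no direct part in this comparison but in the shared spread, 1151 genes were called among the lines.

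The smallest p among the lines was that of *Fign*, which encodes fidgetin, an ATPase that cuts microtubules. *Fign* was at 40.9 and 57.5 CPM in *208-ΔA*, 15.8 and 14.5 in *208-ΔF*, 12.2 and 20.8 in *208-ΔG*, and 54.3 and 58.4 in DGRP_208. *208-ΔA* overlapped with the controls, and both other lines were far below them. The fold changes were -0.20, -1.90 and -1.78 (standard errors 0.26, 0.27 and 0.27), the unadjusted p among the lines was 5.15e-05, and over the 3 lines the adjusted p was 0.0734 from edgeR. The next, *CG15096*, fell into a different order, at 225 and 247 CPM in *208-ΔA*, 141 and 159 in *208-ΔF*, 65.7 and 76.1 in *208-ΔG*, and 173 and 115.4 in DGRP_208, with *208-ΔF* among the controls. *qua*, a villin-like actin bundling protein, *CG9498* and *CG6067* had unadjusted p of 2.92e-04, 2.88e-04 and 2.77e-04 among the lines, with *208-ΔA* highest and *208-ΔG* lowest in each.

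Genes with other profiles are given as a description, since edgeR called none of them among the lines (adjusted p = 0.144 for each). *Ppox*, an oxidase gene of haem synthesis, was at 62.8 and 56.3 CPM in *208-ΔA*, 57.0 and 60.2 in *208-ΔF*, 35.4 and 35.4 in *208-ΔG*, and 32.9 and 28.7 in DGRP_208. The 4 libraries of *208-ΔA* and *208-ΔF* were alike, and those of *208-ΔG* lay lower but above both controls. *tim*, a core gene of the circadian clock, was at 219 and 201 CPM in *208-ΔA*, 190.4 and 195 in *208-ΔF*, 116 and 113 in *208-ΔG*, and 114 and 94.3 in DGRP_208, with *208-ΔG* overlapping the controls. *wfs1*, wolframin of the endoplasmic reticulum, chosen after its values were seen, was at 63.3 and 50.1 CPM in *208-ΔA*, 55.4 and 57.6 in *208-ΔF*, 35.2 and 39.4 in *208-ΔG*, and 30.8 and 26.9 in DGRP_208, with both *208-ΔG* libraries above the controls. For *Ilp6*, an insulin-like peptide of the fat body, the levels were 56.1 and 54.6 CPM in *208-ΔA*, 39.2 and 46.5 in *208-ΔF*, 30.5 and 31.7 in *208-ΔG*, and 30.9 and 25.4 in DGRP_208, with *208-ΔG* overlapping the controls. Fold changes in *208-ΔA*, *208-ΔF* and *208-ΔG* were 0.95, 0.93 and 0.20 for *Ppox*, 1.01, 0.89 and 0.14 for *tim*, and 0.98, 0.60 and 0.14 for *Ilp6*. None was called in any line or over the 3 lines (adjusted p = 0.429, 0.349 and 0.896 from edgeR).

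**Figure D5:**
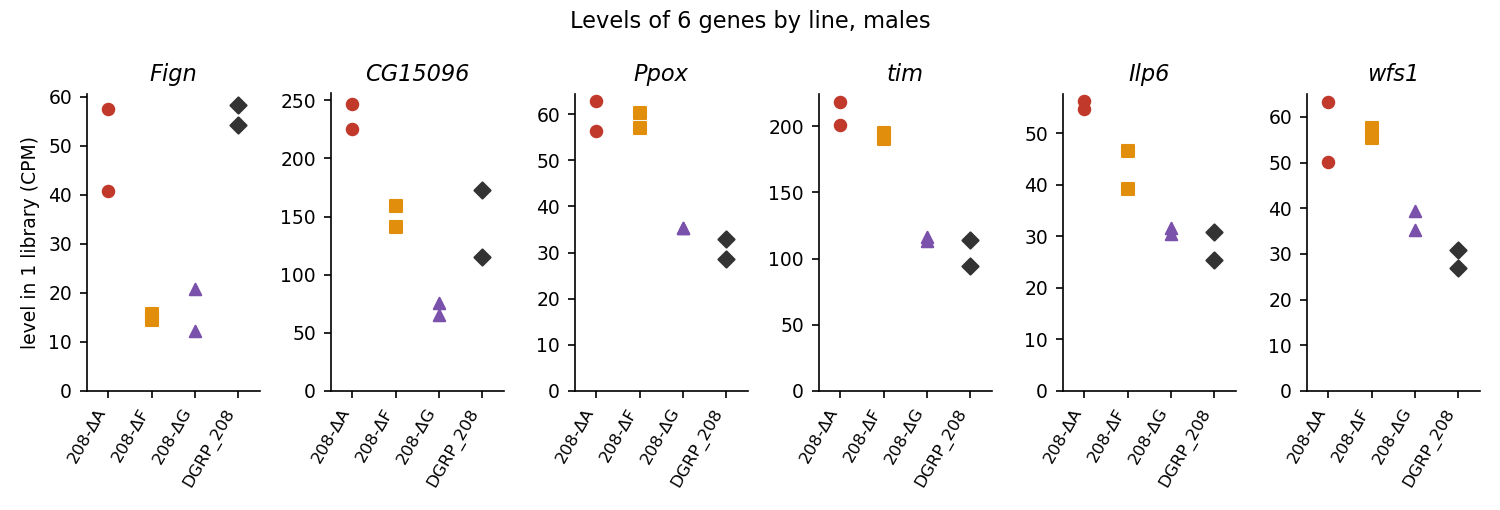
Levels of *Fign*, *CG15096*, *Ppox*, *tim*, *Ilp6* and *wfs1* in the male libraries of each line, in CPM from 0, with 1 marker per library. *Fign* is low in *208-ΔF* and *208-ΔG* alone, and *Ppox*, *tim* and *wfs1* are higher in *208-ΔA* and *208-ΔF* than in *208-ΔG*, which lies nearer to DGRP_208.

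Whole groups of transcripts differed in median between the lines. The median fold change of 85 cytoplasmic ribosomal protein genes was 0.68 in *208-ΔA*, 0.24 in *208-ΔF* and -0.82 in *208-ΔG*. For 85 nuclear genes of oxidative phosphorylation it was 0.56, 0.27 and -0.71, and for muscle genes 0.39, 0.35 and -0.88. Cuticle protein genes went the other way (-1.22, -0.32 and 0.78), as did chemoreceptors (-1.06, -0.39 and 0.77), and all genes had medians of 0.08, 0.03 and -0.08. Over the 3 lines edgeR called no member of these lists, DESeq2 1 cuticle protein and 1 chemoreceptor gene, and limma-voom and limma on GeTMM values none. At an unadjusted p under 0.05 there were 4 cuticle protein genes higher (3.42%, all genes 1.84%) and 1 lower (0.855%, all genes 1.1%). There were also 3 chemoreceptors higher (1.71%), and 0 genes of the other lists. The chemoreceptor level of the libraries was highest in *208-ΔG* and also separated the 2 controls. Whether these medians move with that level was not tested. With scaling by library size alone the median of all genes became -0.24, -0.18 and 0.36.

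Because deletion males are sterile by the study's account, genes of the male reproductive system were compared in particular. The study reports that deletion flies mate normally, and that embryos fathered by deletion males with wild-type females fail to develop further. Of 33 spermatid and sperm genes tested, edgeR called 0, DESeq2, limma-voom and limma on GeTMM values called 0, and 0 had an unadjusted p under 0.05. Their median fold change was 0.23 (0.79 without DGRP_208 male replicate 1, -0.24 without replicate 2). By line this median was 0.62 in *208-ΔA*, 0.63 in *208-ΔF* and -0.56 in *208-ΔG*. Of 13 genes of the testis transcription programme, *sa*, which encodes a testis-specific TAF protein needed for meiosis, was higher at an unadjusted p of 0.0116, at 10.9 to 27.9 CPM in the 6 deletion libraries against 11 and 5.96 CPM in DGRP_208, with overlap. Of 13 genes of spermatocytes and meiosis, *tut*, which acts in the spermatogonial divisions, had an unadjusted p of 0.0183 (fold change 1.04).

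Seminal fluid proteins are made in the accessory glands and pass to the female at mating. Of 59 of their genes tested, 55 had a negative fold change, with a median of -0.37, but 0 had an unadjusted p under 0.05 and none of the 4 tools called one. By line the median was 0.14, -0.16 and -1.04, and it was 0.23 without DGRP_208 male replicate 1 and -0.85 without replicate 2. *Mst57Db*, chosen after its values were seen, was at 2283 and 2727 CPM in *208-ΔA*, 1611 and 2415 in *208-ΔF*, 1126 and 1226 in *208-ΔG*, and 2893 and 1410.0 in DGRP_208. The deletion libraries overlapped with the controls, of which replicate 1 was above all of them and replicate 2 below 4 of them.

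Female and germ line transcripts in the male libraries were given by the defining markers. *Yp1*, which encodes a yolk protein, stood at 183 CPM in *208-ΔA* male replicate 2, against 5.00 to 28.5 CPM in the other deletion males and 3.98 and 10.1 CPM in the controls. The same library was highest for *vas*, the germ line RNA helicase Vasa (30.5 CPM, 7.42 to 13 in the other deletion males, 6.24 and 4.37 in DGRP_208), and for *RpS5b*, the ribosomal protein of the germ line (102 CPM, 20.9 to 28.5, 16.7 and 15.9). All deletion males lay above both controls for *vas* and *RpS5b*. The eggshell gene *Cp36* was not high in this library, at 1.265 and 1.289 CPM in replicates 1 and 2 of *208-ΔA*. It was at 4.82 and 1.99 CPM in *208-ΔF*, 9.72 and 8.90 in *208-ΔG*, and 1.26 and 7.94 in DGRP_208. Without *208-ΔA* male replicate 2 the fold change of *vas* was 0.93 in place of 1.30. The fold changes without it were 2.40 for *CtsL3*, 4.89 for *TotM* and 4.84 for *Diedel*, and these genes remained called. Over 25 ovary, eggshell and yolk markers the median fold change was -0.12 (-0.84 without DGRP_208 male replicate 1, 1.53 without replicate 2, -0.70 without *208-ΔA* male replicate 2), with 0 called and 0 at an unadjusted p under 0.05 by edgeR, and 0 called by the 3 other tools.

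On the Y chromosome, which males alone carry, 10 of 79 genes tested (12.7%) lay above both controls in all deletion males (all genes 2.76%) and 0 below (all genes 1.54%). Without the *Su(Ste)* copies it was 3 of 56 (5.36%). Over the whole chromosome there were 0 genes called by any of the 4 tools and 3 at an unadjusted p under 0.05. The *Su(Ste)* copies are repeats that give rise to piRNAs against *Stellate* in the testis. Of all 28 copies tested, not all of them placed on the Y, 7 (25.0%) lay above both controls, with a median fold change of 0.92. These copies were grouped after their values were seen. They are nearly identical, and only reads aligned to a single place were counted, so that each copy's count is uncertain. The 12 protein genes of the Y had 0 members above both controls, 0 below and a median of -0.27. On the other chromosome arms the medians over the 3 lines were from -0.14 (chromosome 4) to -0.04 (2L), and on chromosome 4 the *208-ΔG* median was -0.84.

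To see what was particular to males, the difference of the deletion effect between males and females was tested. The count called by edgeR was 0 (0.0%), the unadjusted p was under 0.05 for 411 genes (2.54%), the adjusted p was at least 0.0891, and DESeq2 called 19, limma-voom 1 and limma on GeTMM values 1. The smallest p was that of *Lcp65Ag2*, a cuticle protein gene, with a fold change of 1.27 in males and -3.73 in females. *Boot* followed with 0.17 and -3.41 (adjusted p of the difference = 0.157 from edgeR), then *CG15023* with 1.23 and -2.66, *asRNA:CR44205* with -3.27 and 2.30, and *CG14834* with 0.28 and -1.48.

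In females edgeR called 21 genes (0.13%, and 3.78% at an unadjusted p under 0.05), and 6 of the 10 genes called in males were among them, in the same direction, *CtsL3* (2.51 in males, 1.42 in females), *TotM* (5.06, 3.61), *TotA* (3.36, 2.34), *Diedel* (5.08, 3.80), *Nepl5* (-1.35, -1.53) and *snoRNA:Or-aca5* (-7.31, -8.85). *TotC*, *BaraB*, *CG44521* and *asRNA:CR44205* were not called in females (adjusted p = 0.172, 0.206, 1.000 and 0.907 from edgeR). None of the 10 passed the test of the difference, so none was shown to differ between the sexes.

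Other lists held no called gene by edgeR. At an unadjusted p under 0.05, 1.84% of all genes were higher and 1.1% lower. Of 82 cytochrome P450 genes 3 (3.66%) were higher and 2 (2.44%) lower at this threshold. Among them were the mitochondrial *Cyp12c1* (0.85) and *Cyp12a5* (-0.89) and *Cyp4g1*, of hydrocarbon synthesis in oenocytes (-0.91). Of 35 glutathione S-transferase genes 3 (8.57%) were higher, and of 15 clock genes 2 (13.3%), *tim* included. Of 16 fat body genes 3 (18.75%) were higher, the storage protein gene *Lsp2* (2.16) and the lipophorin gene *apolpp* (1.04) among them. Of 175 chemoreceptor genes 3 (1.71%) were higher at an unadjusted p under 0.05 and 5 (2.86%) lay above both controls, shares near the 1.84% and 2.76% of all genes. *Gr32a*, a gustatory receptor that restrains courtship of other males, was at 5.33 and 6.07 CPM in *208-ΔA*, 5.38 and 5.81 in *208-ΔF*, 4.43 and 4.02 in *208-ΔG*, and 1.98 and 2.01 in DGRP_208. The 6 deletion libraries of *Gr32a* were alike across the lines and lay above both controls, with a fold change of 1.36 (standard error 0.50, adjusted p = 0.999) from edgeR. *Or94a*, an odorant receptor, was at 3.57 to 4.89 CPM in the 6 deletion libraries against 0.773 and 1.68 CPM in DGRP_208 (1.74). Among 17 heat shock genes *Hsp23* was higher (0.88, unadjusted p = 0.0140) and *lncRNA:Hsromega* lower, and edgeR called none of them. DESeq2 called 1 gene each of the cytochrome P450, heat shock, haem and UDP-glycosyltransferase lists, and limma-voom and limma on GeTMM values called none.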

How the data were processed

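Total RNA of whole flies was sequenced after depletion of ribosomal RNA. By the methods, the authors filtered reads with AfterQC, aligned them with GSNAP to dm6 and counted reads aligned to a single place per gene with featureCounts of Subread. For GSNAP and Subread no version is given in the sources used here. The deposited values are raw counts per gene, whole numbers that were not normalized, and each library has a column, assigned by the sample title in the column name. Library totals were 13902521 to 51954693 counts over the 16 libraries and set the precision of each gene, and intervals and tests cover the spread between libraries. Symbols and positions were found for 17288 of 17490 identifiers.

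Genes whose median count reached 2 were tested with edgeR 4.0.16 (R 4.3.3), with TMM factors, 1 mean for each of 8 groups of line and sex over all 16 libraries, 8 residual degrees of freedom, the quasi-likelihood F-test and Benjamini-Hochberg adjustment. Contrasts were the mean of the 3 deletion groups, and each line, against DGRP_208 in males, the 3 lines among each other, and the effect in males minus that in females. The tests were tried on simulated data with 200 changed genes. Tried as alternatives were scaling by DESeq2's size factors, by the upper quartile or by library size only, an adjusted p under 0.1, no filter, filterByExpr, DESeq2 1.42.0, limma-voom (limma 3.58.1), limma on log2 GeTMM values with a pseudocount of 1, male libraries alone, the replicate number as a block, the chemoreceptor level as a covariate, and leaving out each male library in turn, with the lone library of an arm taken to vary as the rest do. For snRNA genes, library size only and leaving out each library were added after seeing the data.

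The members, the 38 gene lists and the tests were chosen with earlier results of these data known. Named genes were all called genes, per direction up to 10 of smallest p without overlap and with at least 1 CPM over the 8 males, up to 5 called per direction and line, genes of the *Uhg4* locus, *Ilp6* and *Ppox*, up to 4 of smallest p per list, and up to 5 of smallest p among the lines and for the sex difference. Genes outside this rule were chosen after their values were seen. Each standard error was derived from the fold change and the F value of its test. No sequence is printed.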

Additional observations from a re-analysis of the deposited data

Results flagged for a closer look

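Among 75 genes examined, 1 of the 6 deletion males lay so far from its nearest neighbour, relative to the range of the group, that it passed the 95% critical value of Dixon's test for 16 genes. For 6 values drawn from 1 normal population this happens by chance in about 1 of 20 groups. Here the values were CPM, not on a log scale, of libraries from 3 lines, and some genes were chosen after their values were seen. That rate therefore need not hold for these genes. In 13 of the 16 the library was *208-ΔA* male replicate 2, and 10 of these 13 are yolk, eggshell, germ line or cell cycle genes. Its levels in CPM were those of *Yp1* (183), *vas* (30.5) and *RpS5b* (102), and of the yolk protein gene *Yp2* (429.6, others 9.84 to 46), the yolk protein gene *Yp3* (725, others 41.9 to 209.7), the vitelline membrane gene *Vm26Ab* (77.0, others 0.744 to 7.13), the germ cell gene *pgc* (20.5, others 0.198 to 1.81), the germ line innexin gene *zpg* (25.4, others 3.07 to 7.18), the piRNA pathway gene *piwi* (29.5, others 5.72 to 11.4) and the cyclin gene *CycB* (192, others 47.7 to 67.8). For *Vm26Ab* and *pgc* the choice came after their values were seen.

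The same library was apart for *CG43133* (9.04 CPM, others 1.23 to 4.03), the hemocyte gene *NimC1* (23.5, others 14.6 to 17.6) and *snRNA:U5:23D* (17.5, others 4.08 to 8.48). *208-ΔF* male replicate 1 stood apart for the antibacterial peptide genes *DptB* (19.0), *AttC* (66.7) and *DptA* (43.9), all targets of the Imd pathway. What sets these libraries apart was not tested.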

How the results depend on the processing

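With 2 control libraries, the number of called genes depends on each of them, and small fold changes of genes under 1 CPM are beyond this depth. For the 3 lines together the count was 10, and it was 61 with DESeq2, 17 with limma on log2 GeTMM, 3 with male libraries alone, 24 with the chemoreceptor covariate and 2 to 7 without 1 library. For *208-ΔA* (7) it was 119 with DESeq2, 2 with males alone, 15 with the covariate and 1 to 6 without 1 library. For *208-ΔF* (5) it was 9 at an adjusted p under 0.1, 40 with DESeq2, 10 with GeTMM, 0 with males alone (smallest adjusted p = 0.0829), 15 with the covariate and 0 to 4 without 1 library. For *208-ΔG* (0) it was 3 at an adjusted p under 0.1, 2 with DESeq2 size factors, 4 with library size only, 102 with DESeq2, 2 with limma-voom, 4 with GeTMM and 0 to 1731 without 1 library. Among the lines (0) it was 2694 with DESeq2 and 0 to 1151 without 1 library. For the difference between the sexes (0) it was 1 at an adjusted p under 0.1, 19 with DESeq2, 1 with limma-voom, 1 with GeTMM, 8 with the covariate and 0 without each library in turn. Genes without overlap (697) numbered 1224 with library size only and 798 to 4696 without 1 library, most without either DGRP_208 library, since fewer libraries overlap less. The cause of the other changes was not tested.

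With the replicate block the counts were 6 for the 3 lines and 2 for *208-ΔG*. The replicate numbers do not pair the samples: deviations of same-numbered libraries had correlations of -0.770 to 0.447 between groups.

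For 92 named genes, 1723 of 1840 values under the alternatives kept direction and side of the threshold, 56 lost the call (40 without 1 library) and 47 gained one (27 with DESeq2). The fold change turned its sign in 14, none of them called. Without DGRP_208 male replicate 1 it was *Boot* -0.26, *CG15096* 0.13, *TotZ* -0.46, *Socs36E* -0.10, *upd3* -0.69, *Mst57Db* 0.25. Without DGRP_208 male replicate 2 it was *Ctu1* 0.39, *CG9498* -0.10, *TotF* 0.67, *upd2* 1.36. Without *208-ΔA* male replicate 2 it was *Vm26Ab* -0.74, *upd3* -0.18. With library size only it was *upd3* -0.13. Without *208-ΔF* male replicate 1 it was *upd3* -0.14. Over the 8 refits without 1 library these genes ranged as follows: *Boot* -0.26 to 0.57, *CG15096* -0.36 to 0.13, *CG9498* -0.10 to 0.32, *Ctu1* -0.63 to 0.39, *Mst57Db* -0.69 to 0.25, *Socs36E* -0.10 to 0.31, *TotF* -1.64 to 0.67, *TotZ* -0.46 to 2.94, *Vm26Ab* -0.74 to 3.05, *upd2* -1.64 to 1.36, *upd3* -0.69 to 1.66.

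The medians of lists and arms were compared, without 1 library, with the standard deviation of each median over the 6 deletion males. This spread includes the differences between the lines, so it is wide for lists that differ by line. Cytoplasmic ribosomal proteins, at -0.44 to 0.59, did not move by more than it. Those that did had these ranges over the 8 refits: antimicrobial peptides 0.28 to 0.96, chemoreceptors -1.04 to 1.09, cuticle proteins -0.88 to 1.00, cytochrome P450 -0.18 to 0.13, early germ line and stem cell niche of the testis -0.39 to 0.82, heat shock -0.43 to 0.31, muscle -0.60 to 0.80, neurons -0.53 to 0.29, ovary, eggshell and yolk (female markers) -0.84 to 1.53, piRNA pathway -0.40 to 0.58, sex determination and dosage compensation -0.20 to 0.13, sleep -0.26 to 0.26, spermatocyte and meiosis -0.24 to 0.43, Uhg4 locus -1.81 to -0.75, chromosome X -0.13 to 0.10, chromosome Y -0.23 to 0.79.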
